A study of Mus musculus with 577 samples.

Results

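H1foo, the linker histone of oocytes, and its counterparts H1f0 and H1fx are 3 of the 22060 protein-coding genes in the gene tables and 3 of the 11 linker histone genes listed there, and they were chosen by symbol alone. The study measured RNA from single cells cut out of mouse ovary sections by laser capture microdissection (LCM) and read with DRaqL, a detergent lysis for alcohol-fixed sections that feeds several amplification methods. It holds 562 libraries of 3′ ends of transcripts and 15 libraries with Y-shaped adapters that cover exons, 577 samples in all. Oocytes were labelled as primary or secondary-to-antral, and granulosa cells, which surround the oocyte in the follicle, as neighboring or non-neighboring to it.

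The ovaries came from 8-week-old females whose genotype and strain the labels do not give, and they were snap-frozen, cut, fixed in alcohol and stained with cresyl violet, except that 1 set was fixed in formalin for 24 h. The labels and methods name no transgene. The dissociated cells of the mouse described next were collected in a medium with dibutyryl-cAMP, an analog of cAMP, and the LCM cells were not, so that agent and isolation cannot be told apart between those sets. The DRaqL-SC3-seq set holds 14 primary and 30 secondary-to-antral oocytes, 31 neighboring and 26 non-neighboring granulosa cells and, as a cultured reference, 81 mouse embryonic stem cells (mESCs) grown in 2i-LIF, of which 45 were freshly dissociated and 36 were cut from a cell block. Primary and secondary-to-antral oocytes were also read by SMART-Seq v4 (7 and 11), DRaqL-SMART-Seq v4 (6 and 9) and, from the formalin set, DRaqL-Protease-Smart-seq2 (5 and 7). In 1 mouse in proestrus, 1 ovary gave 8 LCM oocytes and the other 14 oocytes of freshly dissociated cumulus–oocyte complexes. Finally, 8 oocytes were read in 2 serial sections each, and granulosa cells were taken as 7 neighboring pools and 7 non-neighboring pools of about 10 cells and as 7 bulk samples. The study states that the amplification methods it set side by side were run on sections of 1 ovary, so methods are not separate animals. The labels name no mouse for most single cells, so each group of single cells was treated as 1 sample: spreads over cells are given, and no test was made between them.

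Linker histones bind the DNA that enters and leaves the nucleosome and favour compact chromatin. Most linker histones of dividing cells are made during DNA replication from messages that end in a stem-loop without a poly(A) tail. H1foo (also named H1f8) is the form stored by the growing egg, H1f0 is the replacement form of cells that have left the cell cycle, and H1fx (also named H1f10) is a widely expressed distant member. These 3 genes make polyadenylated messages independently of replication, so that libraries primed on the poly(A) tail can read them.

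In GRCm38, the build of the files, H1foo (ENSMUSG00000042279) lies on the plus strand at chr6:115944938-115950236, H1fx (ENSMUSG00000044927) on the minus strand at chr6:87980421-87981637, and H1f0 (ENSMUSG00000096210) on the plus strand at chr15:79028212-79030498. H1f0 and H1fx are single exons of 2287 and 1217 bases in the exon tables. H1foo-201, the main transcript in GENCODE vM21, has 5 exons and 4 introns, and its 912 coding bases before the stop exceed the 582 of H1f0-201 and the 564 of H1fx-201. The main transcript of each of the 3 genes holds AATAAA, the common polyadenylation signal, in its last 40 bases on the transcript strand, as do 39.4% of 58616 protein-coding transcripts of at least 200 bases. This match is a description of the letters and not of a used site.

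The exon table lists H1foo exon 4 in 3 forms, and a 79-base exon between exons 1 and 2. The segments below lie in exons whose reads are counted later, as whole exons or exon forms. In exon 4, at chr6:115949686-115949745, the capitals mark the first 3 bases, which the 53-base form lacks, and the last 4 bases, which the 56-base and 53-base forms lack. In the other segments the capitals mark the stop codon that follows in frame: at chr6:115949890-115949900 when exon 5 is read after the 60-base form, and at chr6:115946958-115946998 when the 79-base exon is read. All are GENCODE vM21 transcript sequence of the plus strand.
Exon 4, 60-base form: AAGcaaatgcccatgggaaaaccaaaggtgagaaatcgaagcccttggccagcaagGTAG
Start of exon 5 after the 60-base form: gtccagaaTAG
Start of the 79-base exon: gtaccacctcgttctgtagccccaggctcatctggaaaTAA

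Values of the 3′ libraries are reads per 1000000 reads of protein-coding genes (RPM). Depth was 873206–2338750 reads in the DRaqL-SC3-seq oocytes, 162033–1429292 in the granulosa cells, 204699–3440997 in the mESCs, 3811945–8259281 in the pools and 3826680–7446680 in bulk. Cell labels were checked against fixed markers: the 13 oocyte markers, such as the zona pellucida genes Zp1, Zp2 and Zp3, summed to a median of 13184 RPM in primary oocytes, 31243 RPM in secondary-to-antral oocytes, 149 RPM in granulosa cells and 35.6 RPM in mESCs. The 12 granulosa markers summed to a median of 6939 RPM in granulosa cells and 227 RPM in oocytes. Inha alone had a median of 4675 RPM in granulosa cells, and Amh, a hormone of growing follicles, had a read in 16 of the 57. Kitl and Cyp19a1 went the other way, with mean log2 (RPM+1) of 1.75 and 1.14 in oocytes and 0.82 and 0.73 in granulosa cells. The 10 mESC libraries with Y-shaped adapters each matched best a 3′ library of the other label, fresh or cell block (r = 0.725 to 0.830 across genes, where the next best reached at most 0.174), so both labelled types were pooled below.

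H1foo was high in each oocyte of the DRaqL-SC3-seq set and low in mESCs, with granulosa cells spread between them. In the 30 secondary-to-antral oocytes it measured 2136 RPM at the lowest, 5701 at the median and 8379 at the highest, and in the 14 primary oocytes 291, 704 and 1586 RPM. In the 81 mESCs 9 reads were seen in 9 cells, which gives 0.0565 RPM over the summed libraries (95% Poisson interval 0.0258–0.107) and 11.1% of cells with a read (exact binomial interval 5.21–20.0%). The lowest oocyte thus lay above the highest mESC, at 0.674 RPM, and the share of all genes that separate these groups was not computed. Such intervals cover counting error only, since these reads carry no molecular identifiers.

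In the 57 granulosa cells H1foo ranged from 0 to 3850 RPM with a median of 27.3, and 43 cells (75.4%, exact binomial interval 62.2–85.9%) held a read. With each cell thinned to 162033 reads, the depth of the shallowest, 64.9% of granulosa cells, 100% of oocytes and 1.23% of mESCs held an H1foo read. The highest granulosa cells thus reached into the range of the oocytes, while the median lay far below it. The mean difference between oocytes and granulosa cells on the log2 (RPM+1) scale was 6.53, from 11.47 ± 1.48 (SD, n = 44) to 4.94 ± 4.08 (SD, n = 57). The log2 ratio of summed RPM was smaller, 3.13, or 8.78-fold, and with granulosa cells numbered 73 to 100 alone the mean difference was 2.93. Across all 21036 genes with reads in this comparison, 44.6% were more than 2-fold higher in oocytes and the median difference was 0.67, against which H1foo stood at percentile 99.7. It was higher in oocytes by 7.38 in SMART-Seq v4, 7.84 in DRaqL-SMART-Seq v4 and 5.83 in the formalin set.

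In DRaqL-SC3-seq, H1f0 was also higher in oocytes than in granulosa cells, by 3.33 on the log2 scale, with overlap between the cell types. It measured 11.6, 54.9 and 126.1 RPM at the lowest, median and highest in the 44 oocytes. In granulosa cells it measured 0, 1.83 and 489 RPM, and 52.6% of cells (38.97–66.02%) held a read, or 40.4% after thinning. The mean of logarithms and the sum of reads gave different sizes for this gene: the ratio of summed RPM was 1.22, since a few granulosa cells held many reads. In mESCs its median was 4.31 RPM, with a range from 0 to 110 RPM.

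H1fx had few reads in the SC3-seq groups. Its RPM was 0 at the lowest, 0 at the median and 508 at the highest in granulosa cells, and 0, 0 and 2.68 in mESCs, where 22.2% of cells held a read. In primary oocytes it measured 0, 4.57 and 14.9 RPM and in secondary-to-antral oocytes 2.50, 8.23 and 30.9 RPM. The log2 difference between oocytes and granulosa cells was 1.53, percentile 63.3 of all genes, whereas the ratio of summed RPM was 0.603, below 1. No direction between oocytes and granulosa cells was therefore read for H1fx, which was higher by 1.23 in SMART-Seq v4 and differed by −0.71 in DRaqL-SMART-Seq v4. The formalin set held more of it, with medians of 51.6 RPM in neighboring and 28.9 RPM in non-neighboring granulosa cells and 37.7 RPM in secondary-to-antral oocytes.

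**Figure D1:**
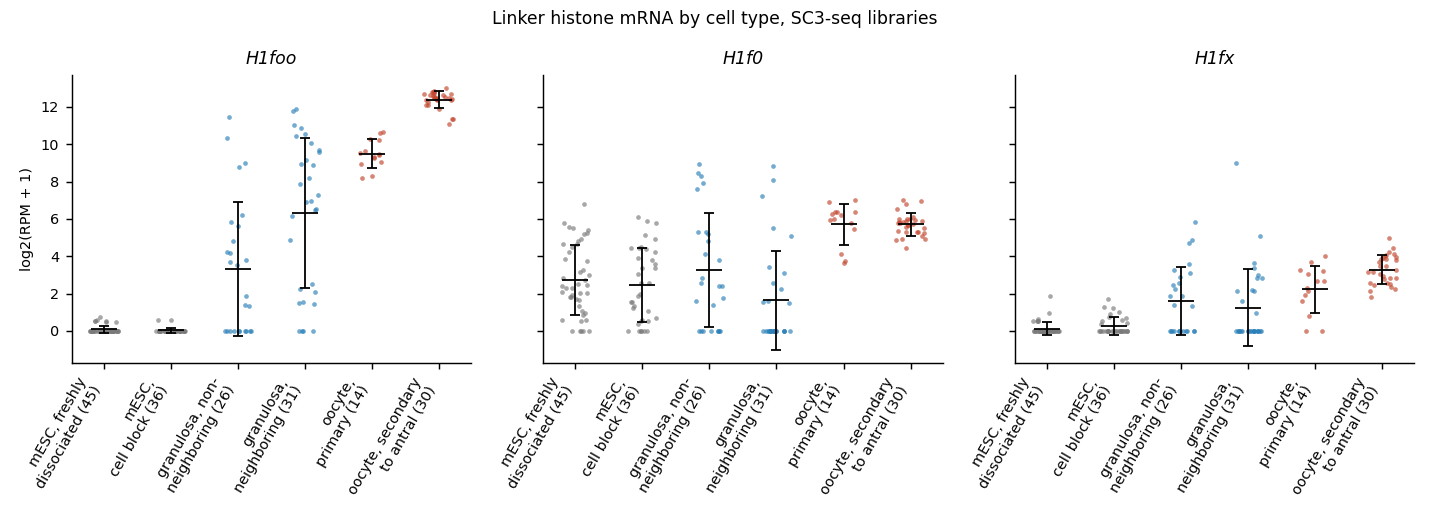
H1foo, H1f0 and H1fx in the 6 groups of the SC3-seq libraries on the log2 (RPM+1) scale, with 1 point per cell and the mean ± SD over cells. H1foo separates oocytes from mESCs without overlap and covers almost the whole scale in granulosa cells, whereas H1f0 and H1fx overlap between cell types. The share of all genes that separate oocytes from mESCs was not computed.

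Levels were set between genes per length of exon in the exon libraries. Given as reads per 1000000 exon reads and per kb of distinct exon length, H1foo measured 6593, 8796, 9179, 8320 and 9010 in secondary-to-antral oocytes 10, 30, 17, 21 and 28. It had the highest mean of the 15549 genes with reads in these oocytes. H1f0 followed at 23.05, 12.2, 18.9, 49.9 and 21.5, rank 2604, and H1fx at 3.06, 0.733, 5.02, 1.07 and 2.76, rank 8443. The order H1foo, H1f0, H1fx held in each of the 5 oocytes: H1foo exceeded H1f0 by 167 to 720 times, and H1f0 exceeded H1fx by 3.77 to 46.7 times. Of the summed per-kb level of the 11 linker histones, H1foo made up 99.2–99.8% per oocyte, H1f0 0.139–0.595% and H1fx 0.00831–0.0545%. Reads of H1foo were denser per base in exon 5 than in exon 1, as given below. The ratios thus depend on dividing by the whole exon length. A spliced read also counts in each exon it touches, which can raise H1foo against the single exons of H1f0 and H1fx. These libraries read polyadenylated RNA, so that messages ending in a stem-loop are not fully represented in that sum.

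In the 10 mESCs of the exon libraries the same scale gave H1foo 0–1.36, from 23 reads in 7 cells, H1f0 0–31.1 with a median of 2.70, and H1fx 0–0.518, from 4 reads in 2 cells. The log2 differences of (value+1) between oocytes and mESCs were 12.57 for H1foo, 2.20 for H1f0 and 1.60 for H1fx, and 29.9% of 16672 genes were more than 2-fold higher in oocytes. In mESCs H1f0 had the highest mean of the 3 genes. Its highest mESC value lay above 4 of the 5 oocytes, so the groups overlapped for H1f0. They did not overlap for H1foo, and the share of all genes without overlap was not computed. For H1fx the lowest oocyte, at 0.733, and the highest mESC, at 0.518, held 3 reads each, so no separation was read.

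Of the 3 genes, H1foo differed most between the oocyte stages. On the log2 (RPM+1) scale its mean was 9.49 ± 0.76 (SD, n = 14) in primary and 12.39 ± 0.45 (SD, n = 30) in secondary-to-antral oocytes of the DRaqL-SC3-seq set, a difference of 2.90, or 6.61-fold by summed RPM. The lowest secondary-to-antral oocyte lay above the highest primary oocyte, and 21.2% of all genes were more than 2-fold higher in the later stage. The share of all genes whose stages do not overlap was not computed. RPM gives H1foo as a share of the library and not as copies per cell.

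The other methods, on other cells of what the study states to be the same ovary, gave the same order without overlap. Here too the share of all genes without overlap was not computed. In SMART-Seq v4, H1foo was 138, 263 and 506 RPM (lowest, median, highest) in primary and 688, 2799 and 5407 in secondary-to-antral oocytes, a log2 difference of 3.27. In DRaqL-SMART-Seq v4 it was 154, 329 and 489 RPM against 3423, 5791 and 7218, a difference of 4.20, and in the formalin set 22.5, 120 and 293 RPM against 902, 1318 and 1950, a difference of 3.80. The shares of all genes more than 2-fold higher were 24.8%, 26.3% and 20.9% in these methods, and H1foo stood at percentiles 96.4, 97.6 and 98.8. Levels should be set side by side within a method, as the formalin set gave lower H1foo values at both stages.

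H1foo also took a larger part of the oocyte signal in later oocytes. Set against the sum of the 13 oocyte markers in the same cell, it came to a median of 5.39% in primary and 18.0% in secondary-to-antral oocytes of the DRaqL-SC3-seq set, and to 1.82% and 9.31% in SMART-Seq v4. The corresponding medians were 3.93% and 27.1% in DRaqL-SMART-Seq v4 and 1.70% and 4.99% in the formalin set. In the mouse in proestrus, H1foo was 2386, 6107 and 7351 RPM in the 8 LCM oocytes and 4042, 5359 and 9764 RPM in the 14 dissociated oocytes, ranges that overlapped widely.

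H1f0 showed no such order. In DRaqL-SC3-seq its mean was 5.72 ± 1.10 (SD, n = 14) in primary and 5.70 ± 0.60 (SD, n = 30) in secondary-to-antral oocytes, a difference of −0.02. The difference was 1.34 in SMART-Seq v4, 1.13 in DRaqL-SMART-Seq v4 and 2.19 in the formalin set, each with overlap and with an SD over primary oocytes of 2.55, 2.89 and 2.52. Summed RPM in primary and secondary-to-antral oocytes was 58.7 and 67.5, 93.5 and 91.7, and 30.1 and 93.7 in the same order. In DRaqL-SMART-Seq v4, where 1 of 6 primary oocytes had no read, the sum thus went the other way from the mean. For H1fx the log2 differences were 1.06 in DRaqL-SC3-seq and −0.43, 0.29 and 1.59 in the other methods as ordered above, so that its direction varied between them.

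**Figure D2:**
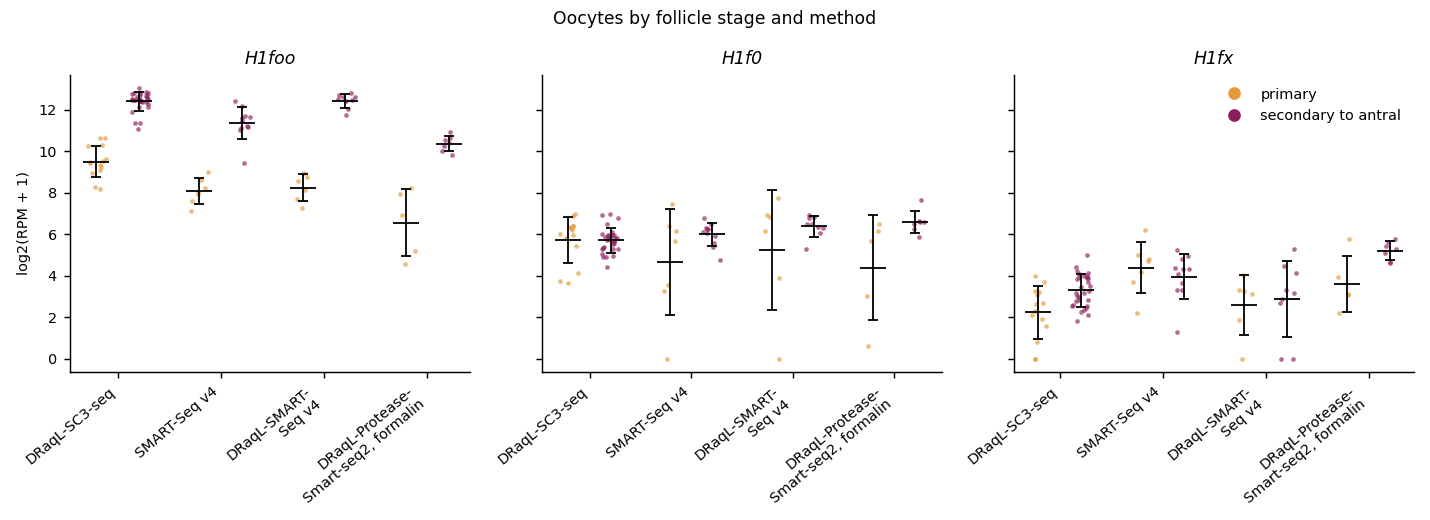
H1foo, H1f0 and H1fx in primary and secondary-to-antral oocytes by 4 methods on the log2 (RPM+1) scale, with 1 point per oocyte and the mean ± SD. The H1foo points of the stages do not overlap in any of the 4 methods, and those of H1f0 do in each of them. The share of all genes whose stages do not overlap was not computed for these methods.

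Serial sections showed how closely H1foo repeated within an oocyte. Over the 8 oocytes cut into 2 sections each, H1foo ranged from 5517 to 8045 RPM, and the second section differed from the first by a mean of −0.06 with an SD of 0.12 on the log2 scale. The largest gap was 0.26, in oocyte 1, at 7308 and 6091 RPM. The SD of single sections within oocytes was 0.093, and the SD between the means of 2 sections was 0.14. H1f0 spread more, with an SD of differences of 0.42 and a largest gap of 1.01 in oocyte 4, at 52.5 and 25.5 RPM. H1fx had an SD of 0.38, on levels of 0.709–4.90 RPM.

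**Figure D3:**
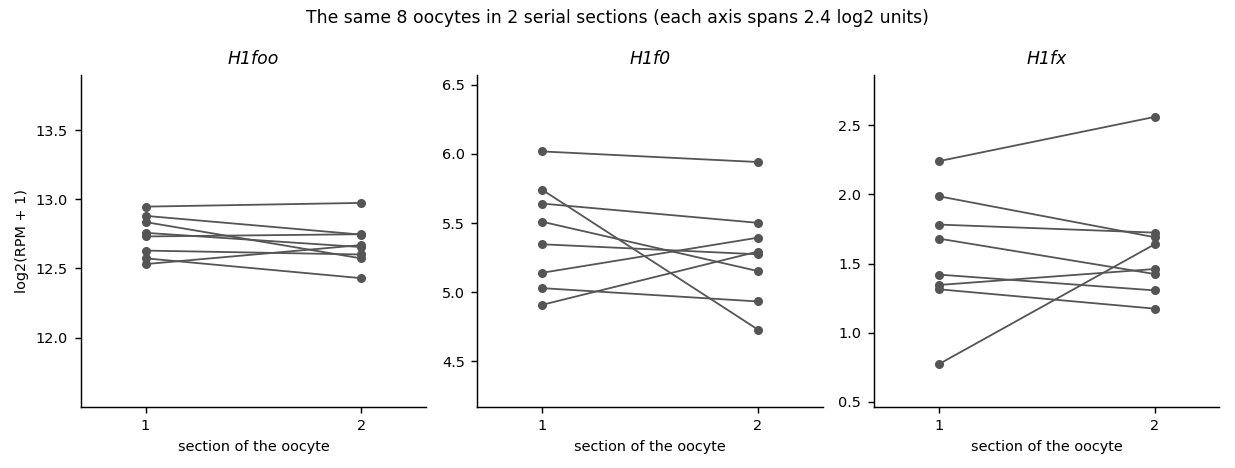
H1foo, H1f0 and H1fx in 2 serial sections of 8 oocytes, with the section on the horizontal and log2 (RPM+1) on the vertical axis and a line joining the sections of each oocyte; each vertical axis spans the same number of log2 units. H1foo lines rise or fall by at most 0.26, and those of H1f0 and H1fx by up to 1.01 and 0.87.

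In granulosa cells, H1foo was higher next to the oocyte. It was 0, 121 and 3850 RPM (lowest, median, highest) in the 31 neighboring cells and 0, 6.62 and 2787 RPM in the 26 non-neighboring cells of the DRaqL-SC3-seq set. A read was seen in 87.1% (70.2–96.4%) and 61.5% (40.6–79.8%) of them, or 74.2% and 53.8% after thinning. The oocyte markers moved with it: they summed to a median of 1985 RPM in neighboring and 30.0 RPM in non-neighboring cells. As a share of those markers H1foo had a median of 13.04% over the 57 granulosa cells, with a range of 0–850%. Over the 44 oocytes the median was 16.1% and the range 2.38–25.6%, with medians of 5.39% in primary and 18.0% in secondary-to-antral oocytes. The part of oocyte RNA in the H1foo level of granulosa cells was not tested.

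The cell numbers of this set fall into 2 runs that differed in the same measures. Among neighboring cells, H1foo had a median of 49.5 RPM in the 22 cells numbered 1 to 69 and 1385 RPM in the 9 cells numbered 73 to 100, with oocyte markers at 641 and 3757 RPM. Among non-neighboring cells it was 0.760 RPM in 20 cells and 64.3 RPM in 6 cells, with markers at 7.17 and 1125 RPM. Within each run H1foo was thus higher in neighboring cells. The labels give no meaning to the runs.

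Across 8 single-cell methods, H1foo had a higher mean in neighboring cells in 8 of 8, by 0.75 to 5.58 on the log2 scale, in methods that share an ovary or a mouse. The largest difference was in LCM-seq, 6.84 ± 3.55 (SD, n = 17) against 1.27 ± 2.43 (SD, n = 20), and the smallest in freshly dissociated cells of the mouse in proestrus, 4.36 ± 4.32 (SD, n = 14) against 3.61 ± 2.82 (SD, n = 21). In the dissociated cells the other measures went the opposite way: the median was 11.2 RPM in neighboring and 28.99 RPM in non-neighboring cells and 64.3% and 66.7% of cells held a read, while the highest neighboring cell reached 4393 RPM. The study describes some of these cells, more often the attached ones, as mixed in profile with oocytes, and they were kept here. The summed oocyte markers differed by 5.56 and −0.05 in these methods, and were higher in neighboring cells in 7 of 8. H1f0 was higher in neighboring cells in 3 of 8 methods, from −4.18 to 1.97, and H1fx in 4 of 8, from −0.94 to 0.92. For H1f0 the far end came from the freshly dissociated cells, where 3 of 14 neighboring and 18 of 21 non-neighboring cells held a read.

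The pools of granulosa cells were separate samples and allowed a test. The 2 kinds of pool also differed in the sum of 6 theca and stroma markers, with a median of 0.412 RPM in neighboring and 403 RPM in non-neighboring pools. Of these markers, 1 was tested and it was not called by edgeR. H1foo measured 41.2, 199, 254, 261, 1476, 1649 and 1764 RPM in the 7 neighboring pools and 0.156, 0.360, 0.787, 8.66, 15.7, 25.6 and 79.4 RPM in the 7 non-neighboring pools. In 6 of 7 neighboring pools H1foo lay above the highest non-neighboring pool. By edgeR's quasi-likelihood test it rose by 5.34 on the log2 scale (SE 1.17, Benjamini-Hochberg adjusted p = 0.0435 over 9704 genes), where 46 genes, 0.474%, were higher and 0, or 0%, lower in neighboring pools, against 399 genes with an unadjusted p under 0.05 and 11 lower by DESeq2. The call is close to its threshold: with DESeq2's size factors in edgeR the adjusted p was 0.0522, and leaving out 1 pool at a time gave 0.0325 to 0.129, past the threshold in 5 of 14 cases, with the libraries named in the closing section. An exact two-sided permutation test of log2 (RPM+1) alone, added after the data were seen, gave a difference of 5.88 and p = 0.00117 (0.00699 adjusted over 6 tests). Nothing says that the pools came from separate animals, so these p-values measure the spread between pools, and fewer cells of a type cannot be told apart from less RNA per cell.

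The oocyte markers moved with H1foo in the pools too. They summed to 530–6153 RPM in neighboring and 0.625–109.1 RPM in non-neighboring pools, without overlap. Of the 11 oocyte markers tested, 7 rose, where 0.474% of all genes did, among them Gdf9, a growth factor that oocytes secrete to granulosa cells (log2 6.30, adjusted p = 0.0192), the zona gene Zp3 (6.26, adjusted p = 0.0208) and the homeobox gene Obox5 (7.29, adjusted p = 0.0316), all by edgeR. The calls of this fit were not stable, since 3 genes in all were called higher without neighboring pool 5 and 4 with the pool number as a block. Npm2, the egg's histone chaperone nucleoplasmin 2, had a log2 difference of 5.79 and an adjusted p of 0.0604. As a percentage of the marker sum, H1foo was 5.14, 30.8 and 49.2 at the lowest, median and highest in neighboring pools, and 0.655, 23.4 and 158 in non-neighboring pools, where reads were few. The part of oocyte RNA in the H1foo difference was not tested.

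H1f0 and H1fx did not pass the test between the pools. H1f0 was 0.340, 19.2 and 119.7 RPM in neighboring and 4.72, 21.1 and 45.3 RPM in non-neighboring pools, a log2 difference of 0.54 (SE 1.09, adjusted p = 0.999 by edgeR). H1fx was 0, 1.98 and 19.3 against 0, 3.15 and 25.5 RPM, −0.65 (SE 1.26, adjusted p = 0.999 by edgeR). These errors leave room for differences of more than 2-fold in either direction.

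**Figure D4:**
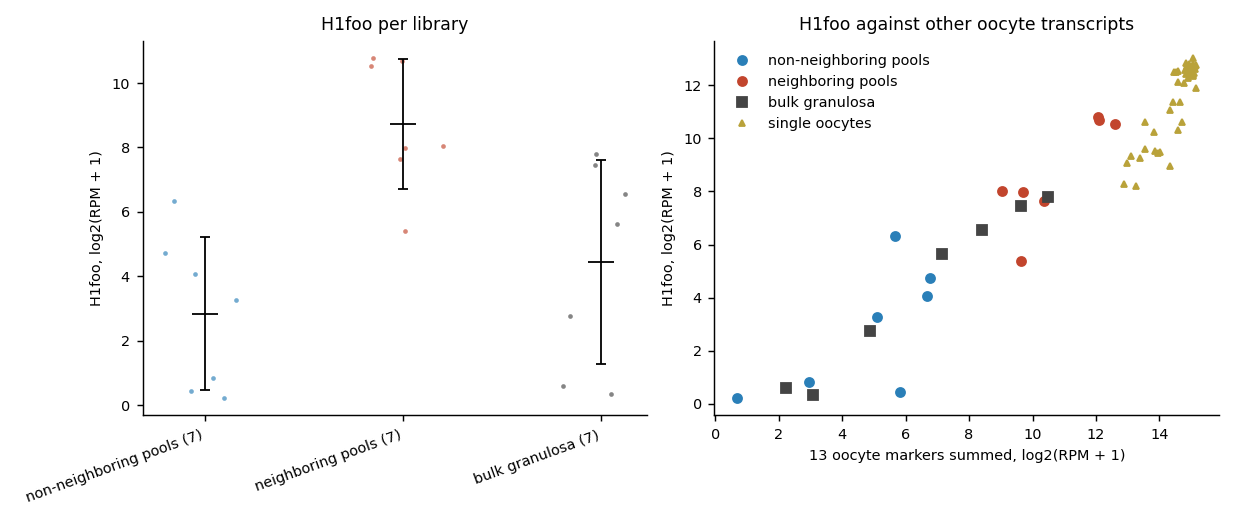
Left, H1foo in neighboring pools, non-neighboring pools and bulk granulosa cells as log2 (RPM+1), 1 point per library. Right, H1foo against the sum of the 13 oocyte markers, both as log2 (RPM+1), for the same libraries and the 44 single oocytes; the pools with most H1foo are those with most marker reads, and the bulk samples reach from 0.269 to 221 RPM of H1foo.

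Bulk granulosa cells did not differ detectably from the pools in the 3 genes. The study took them from early antral follicles whose oocyte was first removed, and from follicles of unidentified stage without an oocyte in the section. Both kinds were kept in a single group here. H1foo was 0.269, 48.4 and 221 RPM at the lowest, median and highest of the 7 bulk samples, with oocyte markers at 3.66–1434 RPM. H1f0 was 23.7, 25.5 and 73.7 RPM and H1fx 1.83, 4.70 and 7.51 RPM. Against the mean of both kinds of pool, edgeR gave log2 differences of −0.68 for H1foo (SE 0.99, adjusted p = 0.9995), 0.37 for H1f0 (SE 0.76) and −0.63 for H1fx (SE 1.03). In that fit 12 of 11917 genes, 0.101%, were higher in bulk and 0, or 0%, lower, against 743 with an unadjusted p under 0.05 and 40 lower by DESeq2. None of the 12 oocyte markers tested was called.

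Of the other linker histones, Hist1h1a, which encodes a replication-dependent form, followed H1foo and H1f0 in the oocytes. Its mean on the log2 (RPM+1) scale was 3.23 ± 1.89 (SD, n = 44) against 0.26 ± 0.62 (SD, n = 57) in granulosa cells, a difference of 2.97. Between stages it was higher in secondary-to-antral oocytes by 3.01 in DRaqL-SC3-seq, 3.28 in SMART-Seq v4, 2.75 in DRaqL-SMART-Seq v4 and 2.16 in the formalin set. Per kb in the exon libraries its median was 5.71, with a range of 3.24–17.8. Of the 11 linker histones, 6 were more than 2-fold higher in oocytes than in granulosa cells and 0 lower in DRaqL-SC3-seq, beside 44.6% and 3.21% of all genes. In SMART-Seq v4, DRaqL-SMART-Seq v4, the formalin set and the LCM and dissociated cells of the mouse in proestrus, 5, 3, 5, 3 and 3 were higher, beside 50.9%, 34.5%, 37.3%, 41.5% and 45.7% of all genes. In the same order 1, 4, 1, 4 and 4 were lower, beside 2.82%, 7.54%, 6.07%, 7.69% and 12.2%, so the members' shares higher in oocytes lay on both sides of those of all genes.

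Genes that process the stem-loop ends of histone messages were higher in oocytes. Of the 8 listed, 8 were more than 2-fold higher than in granulosa cells in DRaqL-SC3-seq, with a median difference of 2.76, beside 44.6% and 0.67 over all genes. Slbp, the stem-loop binding protein, measured 8.67 ± 1.68 (SD, n = 44) in oocytes and 4.10 ± 3.28 (SD, n = 57) in granulosa cells, and Zfp473 and Lsm10, of the machinery that cleaves these ends, were higher by 5.90 and 5.65. Between stages, 5 of 8 were more than 2-fold higher in secondary-to-antral oocytes, beside 21.2% of all genes, with a median of 1.72. Slbp had 9.59 ± 1.00 (SD, n = 30) against 6.71 ± 1.04 (SD, n = 14), and the exonuclease Eri1 was higher by 2.61. In SMART-Seq v4, DRaqL-SMART-Seq v4 and the formalin set 6, 5 and 5 of the 8 were higher between stages, beside 24.8%, 26.3% and 20.9% of all genes. None of the 6 tested was called between pools by edgeR, or had an unadjusted p under 0.05.

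Chaperones and binding proteins of linker histones showed no common direction. Of 13, 3 were more than 2-fold higher in oocytes than in granulosa cells in DRaqL-SC3-seq and 3 lower, beside 44.6% higher and 3.21% lower of all genes. Npm2 was higher by 7.21 and Nap1l4, a nucleosome assembly protein, by 4.44, whereas Ptma, the acidic protein prothymosin alpha, was lower by 2.27. Between stages 3 of the 13 were higher and 2 lower, where 21.2% of all genes were higher and 9.88% lower. Npm2 was higher by 3.19 and Nasp, a chaperone of linker and core histones, by 2.57, while Ptma was lower by 1.75. Of 12 replacement core histone genes 1 was more than 2-fold higher in oocytes and 1 lower, beside 44.6% and 3.21% of all genes. In the later stage 3 were higher and 1 lower, beside 21.2% and 9.88%. H2afj was higher in oocytes than in granulosa cells by 2.85 and H2afz lower by 2.69. Cenpa, the centromeric H3, was higher in the later stage by 3.10. None of the 13 chaperones and 9 replacement core genes tested was called between pools by edgeR, and of these Npm2 alone had an unadjusted p under 0.05.

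The genes whose pattern was most like that of H1foo were sought over the 44 DRaqL-SC3-seq oocytes by Pearson's r across 7219 genes, as a description in which the points share stage and library. Nlrp2 (r = 0.959), of the oocyte's NLR family, Nat14 (0.956), the oocyte-secreted Oosp1 (0.954), Arg2, a mitochondrial arginase (0.952), and Klhl8 (0.951) came first. In 33 other oocytes, by SMART-Seq v4 with and without DRaqL, their r was 0.862, 0.934, 0.866, 0.948 and 0.743, beside a median of 0.15 over all genes. By r in those 33 oocytes they ranked 198, 22, 191, 8 and 569 among the genes. Within the 30 secondary-to-antral oocytes alone r was 0.629–0.872. These 30 are among the 44 from which the genes were picked, so that range is no separate check.

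For H1f0 and H1fx the likeness was not seen in the other oocytes. The first genes for H1f0 were Fbxo31 (r = 0.730), Rab10, Cep95, Nudt18 and Eif3b (0.652), with r from −0.24 to 0.01 in the 33 other oocytes and 0.238–0.455 within the 30 secondary-to-antral oocytes. For H1fx they were Rbfox1 (0.699), Tpm3, Zmat2, Nans and Tpm3-rs7 (0.658), with r from −0.08 to 0.19 and 0.369–0.606. H1foo had r of 0.02 with H1f0 and 0.30 with H1fx over the 44 oocytes, 0.36 and −0.08 over the 33, and 0.15 and −0.63 within the 30 secondary-to-antral oocytes.

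The exon libraries showed how the H1foo reads lie along the gene. In oocytes 10, 30, 17, 21 and 28, exon 1 (145 bases) was touched by 478, 627, 1151, 574 and 850 reads, and exon 5 (342 bases), which holds the 3′ end, by 17443, 19639, 24712, 21545 and 20690. Per base, exon 5 had 9.10 to 15.9 times the reads of exon 1. It held 53.6–63.1% of the summed exon counts of the gene, in which a spliced read counts in each exon it touches. Exon 2 (260 bases) had 1513–3399 reads, exon 3 (310 bases) 4273–7902 and exon 4 3935–7894. Counts thus grew from the 5′ to the 3′ end in each of the oocytes, save that exon 4, at 60 bases, held fewer reads than exon 3 in 4 of 5 oocytes and more in oocyte 30.

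Few reads touched only the bases by which the forms of exon 4 differ. Reads that touched the 60-base form of the sequence above but not the 56-base form came to 2.77%, 4.68%, 4.76%, 4.19% and 3.48% of the reads of the exon in oocytes 10, 30, 17, 21 and 28. Reads that touched the 56-base form but not the 53-base form, which lacks the first 3 bases, came to 1.01–1.46% of those on the 56-base form. Reads that cover these 3 bases, or the bases at the other end, and run on into the exon count for both forms compared. How often each form was used can therefore not be read from these counts. The 79-base exon, with its stop codon, held 46 reads in oocyte 17 and 20 in oocyte 28, and 0 in the other oocytes and in mESCs. A read that ends within a few bases of an exon's edge can count for one form and not for another, so these percentages are not shares of transcripts.

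Spliced reads were concentrated on few H1foo junctions. The oocyte table lists 12 for the gene, with 40552 reads, and 6 of them were seen in all 5 oocytes and held 98.95% of the reads. The most read had 33.6% (exact binomial interval 33.1–34.0%), the second 30.4% and the third 19.9%, followed by 5.99%, 5.57% and 3.57%. Per oocyte the first ranged over 32.3–35.4% and the third over 15.8–21.9%. The main transcript has 4 introns and the 5 annotated transcripts have 9 distinct ones together. The table gives no coordinates for the junctions, so none was assigned to an intron.

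The remaining 6 junctions shared 425 reads, 1.05% (0.951–1.15%). The most read of them had 1.47%, 1.04% and 1.46% of the junction reads of oocytes 10, 17 and 28 and 0 in the other two. A further pair was seen in oocytes 17 and 28 alone, with 32 and 19 reads and with 8 and 1 reads, the same oocytes that held reads of the 79-base exon. In mESCs 1 H1foo junction was listed with 2 reads in 2 cells, and no junction was listed for H1f0 or H1fx, which have a single exon.

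**Figure D5:**
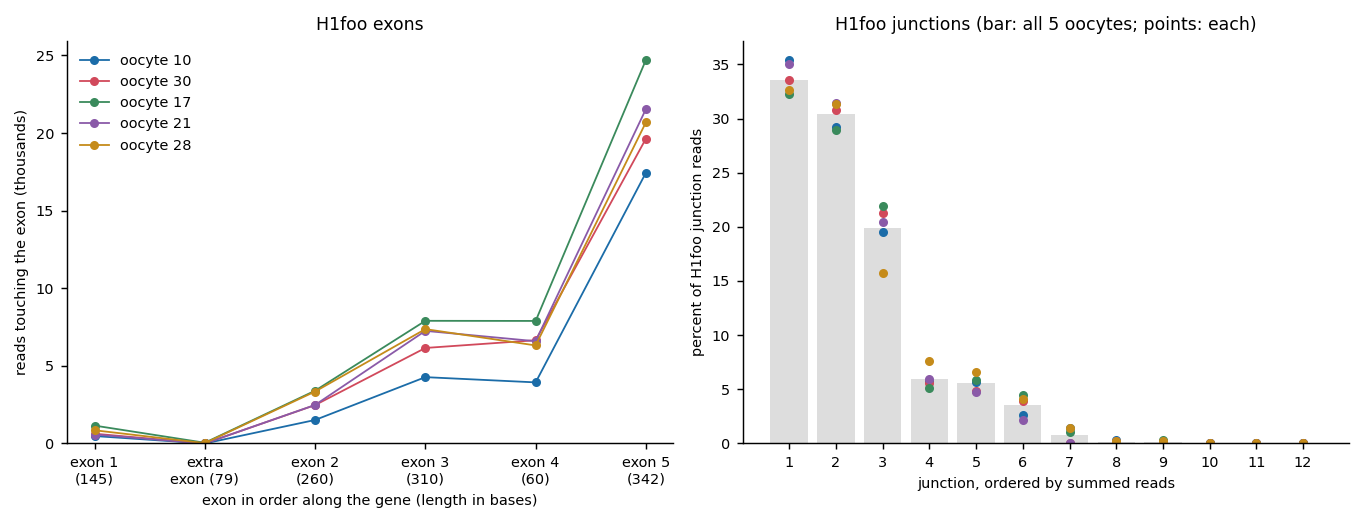
Left, reads that touch each annotated H1foo exon in the 5 oocytes of the exon libraries, with the reads on the vertical axis and 1 line per oocyte, from the 5′ to the 3′ end. Right, the percentage of H1foo junction reads on each of the 12 listed junctions, as bars over the 5 oocytes together and points per oocyte; exon 5 holds the most reads in each oocyte, and 6 junctions hold 98.95% of the spliced reads.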

How the data were processed

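The authors deposited read counts per gene for the 3′ libraries. Per the labels and methods they trimmed reads with fastp 0.20.0 and cutadapt 1.16, aligned them to GRCm38 with HISAT2 2.1.0 and used HTSeq 0.10.0 to count the reads lying at most 10 kb from an annotated 3′ end. From the Y-shaped adapter libraries they deposited counts per exon and junction from featureCounts 2.0.1. The counts hold whole numbers without normalization.

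Here counts were divided by the total over 22060 protein-coding genes (RPM), and log2 (RPM+1) was compared with its SD over cells. Pools (7 against 7) and bulk (7 against 14 pools) were tested on counts with edgeR 4.0.16 in R 4.3.3 (TMM, filterByExpr, quasi-likelihood test, two-sided, Benjamini-Hochberg over all genes, threshold 0.05), after a test on simulated data, and with DESeq2 1.42.0 as an alternative. A higher or lower single-cell count means a mean difference of more than 2-fold. Exon reads were scaled per 1000000 exon reads and per kb. Genes of like pattern are the 5 with the highest r for each gene among those with a mean of at least 4 on the log2 scale. Named list genes are those of fixed lists of linker histones, their chaperones, replacement core histones, histone mRNA processing and cell markers. From the chaperone, core histone and processing lists at most 4 genes each are named, chosen after their values were seen. The members and lists were chosen with earlier results of these data known. Counts of DRaqL-SC3-seq granulosa cells held in a separate table (3 cells), which the study excluded as mixed in profile with oocytes, were left out of group values and added back as an alternative. Same-numbered pools share only a number.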

Additional observations from a re-analysis of the deposited data

Results flagged for a closer look

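Of 42 groups of 4 to 10 samples in which the 3 genes were screened for a sample far from the others, 3 passed the limit, and chance flags about 1 in 20 groups. H1f0 in the formalin set was 7.62 on the log2 (RPM+1) scale in secondary-to-antral oocyte 3, where the nearest of the other 6 oocytes was at 6.61. H1fx in the second section of oocyte 2 was 2.56, with the nearest of 8 sections at 1.72, and the first section of that oocyte was also the highest of its kind at 3.73 RPM. H1fx in exon library 1 of the mESCs labelled LCM was 0.602 on the log2 scale of (reads per 1000000 per kb+1), which rests on 3 reads, with the nearest of 5 at 0.154.

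H1foo was also present in 3 granulosa cells of a separate table, which the group values leave out and which the study set aside as mixed in profile with oocytes. With them the log2 difference between oocytes and granulosa cells was 6.30 in place of 6.53. It measured 1324 RPM in neighboring cell 95, 748 RPM in non-neighboring cell 81 and 425 RPM in non-neighboring cell 85, above the highest mESC in each. The oocyte markers summed to 7630, 656 and 2573 RPM in these cells.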

How the results depend on the processing

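H1foo was higher in neighboring pools under each of the 19 alternatives, but its call was not stable: of 18 edgeR alternatives 6 stayed past the threshold, with adjusted p from 0.0196 to 0.129. The difference was 5.33 with DESeq2's size factors (adjusted p = 0.0522), 5.34 with all genes of the table (0.102) and 6.52 with the pool number as a replicate block (0.0875). DESeq2 gave 5.33 with adjusted p = 3.94e-06. Without 1 pool it was 4.98–6.48, and the call was lost without neighboring pools 4, 5 and 6 (adjusted p = 0.112, 0.129 and 0.115) and non-neighboring pools 2 to 7 (0.0847, 0.0854, 0.0728, 0.0914, 0.0999 and 0.0707), all by edgeR. The cause was not tested. The share of genes called higher and lower between pools, 0.474% and 0%, was 0.0412% and 0.0103% with the block, 1.08% and 0.113% with DESeq2, 0.289% and 0.00526% without the filter, 0.280% and 0.00801% with all genes, and 0.0296–0.540% and 0–0.0507% without 1 pool, lowest without neighboring pool 5. H1f0 turned to −0.52 with the block and −0.24 in the permutation test. Correlations of same-numbered pools were 0.003–0.194 and 3 of 7 correlated best with their own number, so the block stands here only.

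Between bulk and pools, these shares, 0.101% and 0%, were 0% higher with the block, 0.420% and 0.336% with DESeq2, 2.25% and 0.0548% without the filter, 0.774% and 0.103% with all genes, and 0–0.445% and 0–0.0247% without 1 library, highest without bulk sample 4. H1fx turned to 0.55 with the block and 0.19 in the permutation test, and DESeq2 gave H1f0 and H1fx no adjusted p. For oocytes against granulosa cells, log2 ratios of summed counts were 3.13 for H1foo, 0.29 for H1f0 and −0.73 for H1fx, and H1foo was 2.93 higher with granulosa cells 73 to 100 alone. In the exon libraries a pseudocount of 0.1 or 10 gave 14.54 or 9.64 for H1foo and 4.05 or 0.31 for H1fx. Leaving out 1 oocyte gave 33.2–34.0% for the most read junction and 0.815–1.31% outside the 6 main ones. Few reads of H1fx limit its values.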
